A study of Mus musculus with 18 samples.

Results

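The interferon-induced GTPases described here are 8 genes of mouse heart, Igtp, Irgm1, Irgm2, Iigp1, Ifi47, Tgtp1, Gbp2 and Gbp3. The arrays named 8251 genes singly, and Tgtp1 is not among those. The 8 genes were picked by symbol because their signals were higher in TNF transgenic than in FVB hearts at 3 weeks and lower again at 13 weeks, with no threshold set, so those 2 differences are descriptions and carry no test. All 8 were found, on 9 of 12422 probe sets, and all 9 probe sets passed the filter on low signal. One of the 9 is annotated to both Tgtp1 and Tgtp2, which are near-identical neighbours that it cannot separate, and Iigp1 has 2 probe sets.

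Total RNA of mouse heart had been hybridised to Affymetrix U74Av2 arrays, 1 array per sample. Hearts of TNF transgenic mice, which carry a tumour necrosis factor alpha transgene that the labels call cardiac-specific, were sampled at 3 weeks (3 females and 3 males), at 13 weeks (3 males) and at 40 weeks (3 females). Hearts of FVB mice, for which the labels name no transgene, were sampled at 3 weeks only, as 5 distinct arrays (2 females and 3 males), because FVB females 1 and 2 hold identical values and were counted once. The labels name neither the promoter of the transgene nor the strain that carries it, and do not say whether animals were pooled or which age stands for hypertrophy and which for heart failure. Since FVB hearts of later ages were not analysed here, age and the duration of TNF exposure cannot be told apart. No label states that replicates are separate animals, so the spread behind each p-value may be partly or wholly technical.

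Interferon-gamma, a cytokine made chiefly by T and NK cells, binds a receptor that activates JAK kinases. Its target genes carry DNA sites called GAS, and sites called ISRE that are bound by IRF1, which the cytokine induces. Among the strongest targets are 2 families of GTPases. Immunity-related GTPases (IRG proteins) coat and break the vacuoles of intracellular parasites. A regulatory branch with Irgm1, Irgm2 and Igtp (also called Irgm3) sits on the cell's own membranes and holds the others inactive there, and an effector branch with Iigp1 (Irga6), Ifi47 (Irgd) and Tgtp1 (Irgb6) attacks the vacuole. Guanylate-binding proteins such as Gbp2 and Gbp3 are larger relatives of dynamin that gather on the same vacuoles and on bacteria.

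The sequences below show which of the 8 genes carry the classical interferon sites beside their start. RefSeq promoter windows (GRCm38.p6) from 250 bases before to 50 bases after the start were found for 7 of the 8 genes, with 2 windows for Gbp3. Both strands were searched for the core of the ISRE, GAAA followed after any 2 bases by a second GAAA, and for the GAS, TTCNNNGAA. Capitals mark every match, all stretches run 5′ to 3′ on the gene's strand and end before the start, and in Gbp2 and Gbp3 the ISRE core is on the other strand.
Igtp: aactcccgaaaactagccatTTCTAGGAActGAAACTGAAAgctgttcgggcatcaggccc
Irgm2: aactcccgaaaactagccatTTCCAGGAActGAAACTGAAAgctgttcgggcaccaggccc
Tgtp1: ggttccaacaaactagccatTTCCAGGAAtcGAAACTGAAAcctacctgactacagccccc
Irgm1: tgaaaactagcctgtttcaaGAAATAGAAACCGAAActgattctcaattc
Gbp2: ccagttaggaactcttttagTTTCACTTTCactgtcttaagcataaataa
Gbp3: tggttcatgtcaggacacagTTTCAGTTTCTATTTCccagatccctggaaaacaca

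These stretches lie at chr11:58199491-58199551 (plus strand, Igtp), chr11:58214882-58214942 (plus, Irgm2), chr11:48992294-48992354 (minus, Tgtp1), chr11:48871421-48871470 (minus, Irgm1), chr3:142620584-142620633 (plus, Gbp2) and chr3:142559979-142560034 (plus, Gbp3). The ISRE core was present for 6 of the 7 genes, against 3.44% of all 32851 promoter windows, and in Irgm1 and Gbp3 it occurred in 2 overlapping copies. GAS was present for 3 genes (Igtp, Irgm2 and Tgtp1), against 8.30% of all windows. In those 3 a GAS was followed after 2 bases by an ISRE core, a layout chosen for counting after it was seen. It stood in only 5 windows of the 32851 searched, the other two belonging to Tgtp2 and Gm12185, and all 5 lie on chromosome 11. These are not independent matches, because the Igtp and Irgm2 stretches are near copies that differ at 2 of 61 bases. Tgtp1 differs from Igtp at 22 of the 61. Ifi47 held neither motif in its window, and Gbp3 held the ISRE core in 1 of its 2 windows. A match describes letters and shows no binding.

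Across the series, the transgene and a few arrays bear on what follows. Tnf signal was 5476 to 11343 on the 6 transgenic arrays of 3 weeks, 7507 to 10842 at 13 weeks and 8774 to 12082 at 40 weeks, against 12.5 to 124.9 in FVB. None of 8 cardiomyocyte markers lay at background throughout a group, so the tissue label held. The FVB female array of replicates 1 and 2 stood apart, with a median Spearman correlation of 0.798 with the other arrays, where the remaining arrays had 0.904 to 0.965. On 2 arrays labelled FVB male, replicates 1 and 2, Xist of the female X chromosome read 1381 and 2706, so their label of sex is in doubt. RNA integrity, read from the 3′ over the 5′ control probe set of Actb, gave ratios of 1.12 to 1.44 on transgenic and 1.29 to 1.97 on FVB arrays of 3 weeks. Values without these 3 FVB arrays are given beside the counts and calls they change. Genes called in a list passed the filter (a mean signal of 111.2 over all arrays on the log scale) in some cases only through their transgenic arrays, and a rise at 3 weeks is then fixed in part by the filter; these genes are named with their lists.

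Among the regulatory IRG genes, Igtp moved the furthest. It read 1078, 938 and 1419 in transgenic females and 2196, 2157 and 3219 in transgenic males of 3 weeks, 823, 599 and 435 in males of 13 weeks and 526.2, 653 and 758 in females of 40 weeks, against 207, 124, 157, 198 and 110 in FVB. Every transgenic array lay above every FVB array, and both later groups lay wholly below their own sex at 3 weeks. The log2 difference was 3.43 (SE 0.22) between transgenic and FVB hearts of 3 weeks and -2.05 (SE 0.29) between 13 and 3 weeks in transgenic males.

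Irgm2 had the same order of groups at a smaller size. It read 1206, 1046 and 1524 in transgenic females and 1955, 1839 and 2727 in transgenic males of 3 weeks, 914, 713 and 595 at 13 weeks and 546, 812 and 1174 at 40 weeks, against 342, 325, 437, 432 and 231 in FVB. All transgenic arrays stood above all FVB arrays, while 1 array of 40 weeks reached into the range of 3-week females. The log2 differences were 2.25 (SE 0.22) for the transgene at 3 weeks and -1.55 (SE 0.30) for 13 against 3 weeks. Irgm1, whose loss in mice disturbs autophagy and blood-forming cells, had the smallest 3-week difference of the 8. It read 469, 236 and 448 in transgenic females and 617, 931 and 985 in transgenic males of 3 weeks, 437, 347 and 206 at 13 weeks and 326, 266 and 225 at 40 weeks, against 255, 136, 150, 194 and 94.2 in FVB. Here transgenic female replicate 2 fell inside the FVB range, as did 1 array of each later age. Its log2 differences were 1.77 (SE 0.27) for the transgene at 3 weeks and -1.39 (SE 0.36) for 13 against 3 weeks.

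The effector IRG genes stood 2.75 to 3.64 (log2) above FVB in transgenic hearts of 3 weeks, and the regulatory ones 1.77 to 3.43. Iigp1, the IRG protein whose structure and vacuole attack are known best, read 3709, 3021 and 4279 in transgenic females and 4789, 6596 and 8424 in transgenic males of 3 weeks, 2066, 1857 and 1418 at 13 weeks and 1066, 2012 and 2356 at 40 weeks, against 607, 396, 825, 1889 and 740 in FVB. FVB male replicate 2 carried more than 2 times the signal of any other FVB array and lay within the range of both later transgenic groups. The log2 differences were 2.75 (SE 0.27) for the transgene at 3 weeks and -1.87 (SE 0.36) for 13 against 3 weeks. The other probe set of Iigp1, of a class that can read several related transcripts, moved likewise, by 2.38 (SE 0.24) and -1.63 (SE 0.32).

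The probe set shared by Tgtp1 and Tgtp2 read 1361, 1121 and 1791 in transgenic females and 2261, 3253 and 3529 in transgenic males of 3 weeks, 1015, 741 and 575 at 13 weeks and 466.1, 1105 and 840 at 40 weeks, against 206, 102, 277, 619 and 84.1 in FVB. Again FVB male replicate 2 was the highest of its group and overlapped the later ages. The log2 differences were 3.44 (SE 0.40) for the transgene at 3 weeks and -1.97 (SE 0.53) for 13 against 3 weeks. Ifi47 was near background in FVB, at 148, 14.5, 32.7, 94.7 and 8.0, of which 3 of the 5 arrays lay below the floor of 44.7 and were set to it. It read 490 to 898 in transgenic females and 852 to 1416 in transgenic males of 3 weeks, 397 to 592 at 13 weeks and 444 to 604 at 40 weeks, all above FVB. Its log2 difference of 3.64 (SE 0.29) at 3 weeks is therefore a lower limit, and the change at 13 weeks was -1.05 (SE 0.39). Ifi47 passed the filter on low signal only through its transgenic arrays.

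The 2 guanylate-binding genes formed a pair with smaller late changes. Gbp2 read 1639, 1422 and 1657 in transgenic females and 2092, 2467 and 3282 in transgenic males of 3 weeks, 1645, 1448 and 991 at 13 weeks and 1125, 1614 and 1302 at 40 weeks, against 425, 354, 331, 583 and 266 in FVB. Gbp3 ranged over 1169 to 2079 in transgenic females, 2349 to 3036 in transgenic males, 1245 to 1527 at 13 weeks and 1178 to 2207 at 40 weeks, against 285 to 681 in FVB. For both, every transgenic array of every age exceeded every FVB array. Their log2 differences at 3 weeks were 2.40 (SE 0.21) and 2.41 (SE 0.21), and those at 13 weeks -0.95 (SE 0.27) and -0.96 (SE 0.28).

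**Figure D1:**
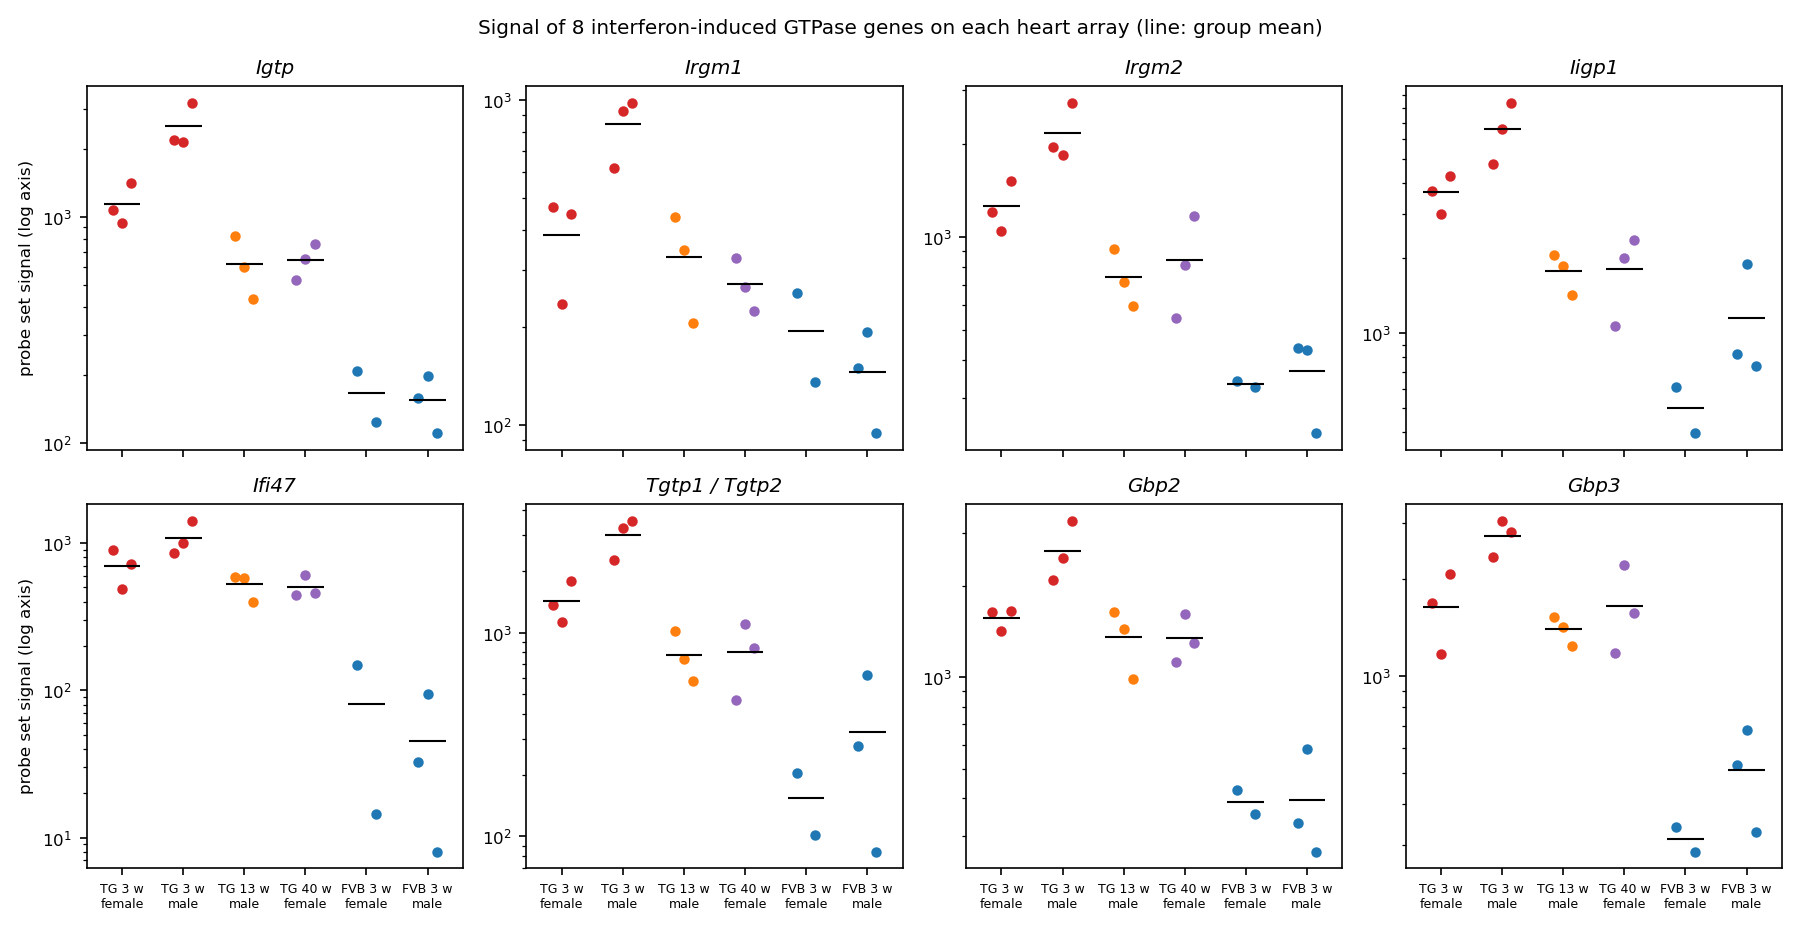
Probe set signal on a log axis for each of the 8 genes, with 1 point per array and a line at each group's mean, for transgenic (TG) hearts of 3, 13 and 40 weeks and FVB hearts of 3 weeks, by labelled sex. Transgenic males of 3 weeks have the highest mean for every gene, and FVB males and females the lowest.

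Over the 8 genes the median log2 difference between transgenic and FVB hearts of 3 weeks was 2.58 (1.77 to 3.64), where the median over all 7453 probe sets tested was -0.01. The 6 transgenic arrays lay wholly above the 5 FVB arrays for 7 of the 8, which 14.5% of all tested probe sets did. At 13 weeks the median was -1.47 (-2.05 to -0.95) against -0.01 over all probe sets, and the 3 arrays lay wholly below the 3-week males for 8 of 8, as for 8.22% of all. These counts are the pattern by which the genes were picked. In males the mean signal left at 13 weeks was 24.5% (Igtp) to 52.1% (Gbp2) of that at 3 weeks. All 3 arrays of 13 weeks stayed above every FVB array of 3 weeks for 5 of the 8 genes, the exceptions being Iigp1, Irgm1 and Tgtp1. Without the outlying FVB female array and the FVB males with Xist, the 3-week difference was larger for Tgtp1 (4.46), Igtp (3.84), Ifi47 (4.36) and Irgm1 (2.29). In whole hearts fewer cells of a type and less RNA per cell cannot be told apart.

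**Figure D2:**
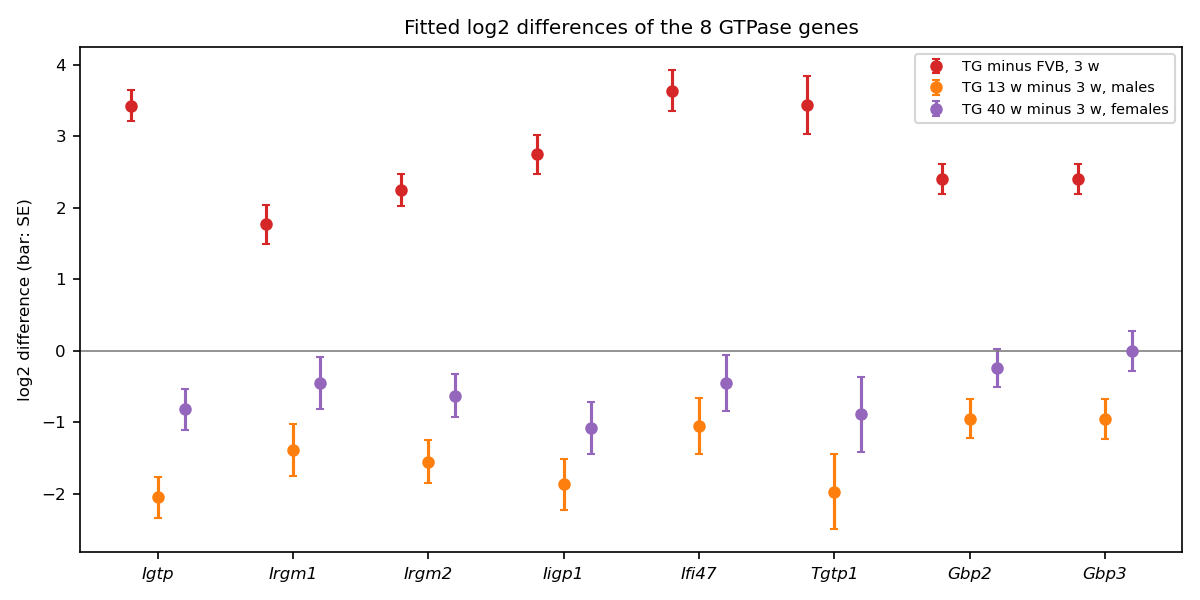
Fitted log2 differences with SE bars for the 8 genes in 3 comparisons, transgenic minus FVB at 3 weeks, 13 minus 3 weeks in transgenic males, and 40 minus 3 weeks in transgenic females. The 3-week differences run from 1.77 to 3.64, those at 13 weeks from -2.05 to -0.95 and those at 40 weeks from -1.08 to 0.00, and the groups that meet in them share the 3-week transgenic arrays.

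At 40 weeks the hearts were female, and the choice of genes used none of their arrays, but it did use the 3-week females they are set against as high values, so that a lower level later is favoured. The 8 genes gave log2 differences between 40 and 3 weeks of -1.08 (SE 0.36) for Iigp1, -0.89 (SE 0.53) for Tgtp1, -0.82 (SE 0.29) for Igtp, -0.63 (SE 0.30) for Irgm2, -0.45 for Irgm1 (SE 0.36) and for Ifi47 (SE 0.39), -0.24 (SE 0.27) for Gbp2 and 0.00 (SE 0.28) for Gbp3. None was called by limma, with adjusted p of 0.288 to 1.0, where 0.295% of all tested probe sets were called lower and 0.376% higher. Unadjusted limma p was under 0.05 for 2 of 8, Iigp1 (0.0080) and Igtp (0.0122), where 9.10% of all probe sets passed in either direction. The arrays of 40 weeks lay wholly below the 3-week females for 3 of 8 (Igtp, Iigp1 and Tgtp1), as for 7.57% of all. On the other probe set of Iigp1, at -0.90 (SE 0.32), the 2 groups overlapped. Mean signal at 40 weeks was 49.4% (Iigp1) to 100.5% (Gbp3) of that in 3-week females. With array weights 3 of the 8 were called (Igtp, Iigp1 and Irgm2), in a fit that called 803 probe sets in place of 50. The Actb ratio was 1.39 to 1.77 at 40 weeks and 1.255 to 1.44 in 3-week females, and its part in these differences was not tested.

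The levels at 13 and 40 weeks were not tested against each other. Igtp averaged 619 ± 195 at 13 weeks and 646 ± 116 at 40 weeks, and Iigp1 1780 ± 331 and 1811 ± 668 (SD, n = 3 each). For the same genes the transgenic females of 3 weeks averaged 1145 ± 247 and 3670 ± 630, and the males 2524 ± 602 and 6603 ± 1817 (SD, n = 3 each). Sex and age cannot be told apart between the later groups, and the change at 40 weeks was not tested against that at 13 weeks.

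Transgenic females of 3 weeks were lower than transgenic males for 8 of 8 genes. The log2 differences, female minus male, ran from -1.17 (SE 0.36) for Irgm1 and -1.14 (SE 0.29) for Igtp to -0.64 (SE 0.39) for Ifi47, and females had 45.4% to 64.4% of the male mean signal. All 3 female arrays lay below all 3 male arrays for 7 of 8, with Ifi47 the exception, and 7.72% of all tested probe sets did so. Limma called none, with adjusted p of 0.211 to 0.837, where 0.0403% of all were called lower. Unadjusted p was under 0.05 for 6 of 8, against 6.87% of all probe sets in either direction. The male arrays of 3 weeks also served the choice of genes, which were to fall from them to 13 weeks, so a lower level in females is favoured by that choice.

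The transgene effect itself was not shown to differ by sex, in a comparison where 2 of the 3 FVB males carry Xist and the transgenic males served the choice of genes. The difference between the female and the male effect was -1.58 (SE 0.53) for Irgm1, -1.22 (SE 0.44) for Igtp and -1.15 (SE 0.59) for Ifi47, and between -0.77 and 0.27 for the other 5 genes. The 2 probe sets of Iigp1 differed in sign, at 0.27 (SE 0.54) and -0.59 (SE 0.48). Adjusted p was 0.189 to 0.911, and limma called 0 of 7453 probe sets, although 16.5% had an unadjusted p under 0.05, as had 2 of the 8 genes (Irgm1, 0.0091, and Igtp, 0.0126). Leaving out FVB female replicate 3, which leaves the outlying array as the only FVB female, called Irgm1 (-2.04, adjusted p = 0.0243), Igtp (-1.59, 0.0281) and Ifi47 (-2.01, 0.0171), among 1492 probe sets called in all. That single array is assumed to vary like the other groups.

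Within groups the 8 genes varied together from array to array, a measure the choice of genes did not use. Deviations from the group means correlated between genes at a median Pearson r of 0.75 (0.39 to 0.90, 28 pairs, 17 arrays), where the median over all pairs of tested probe sets was 0.00 and their 90th percentile 0.50. Points of such a correlation share an array and its scaling. Transgenic female replicate 2 was the lowest 3-week female for 8 of 8 genes and male replicate 3 the highest 3-week male for 7. At 13 weeks replicate 1 was the highest and replicate 3 the lowest for 8 of 8, and at 40 weeks replicate 1 was the lowest for 7. How often these arrays were extreme over all tested probe sets was not counted, so a shift of a whole array cannot be judged from these ranks. Averaged over the 8 genes, log2 signal centred on each gene's mean was 1.32 to 1.92 on the 3-week males, 0.37 to 0.98 on the 3-week females, -0.24 to 0.46 at 13 weeks and -0.20 to 0.38 at 40 weeks, against -2.14 to -0.85 in FVB.

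**Figure D3:**
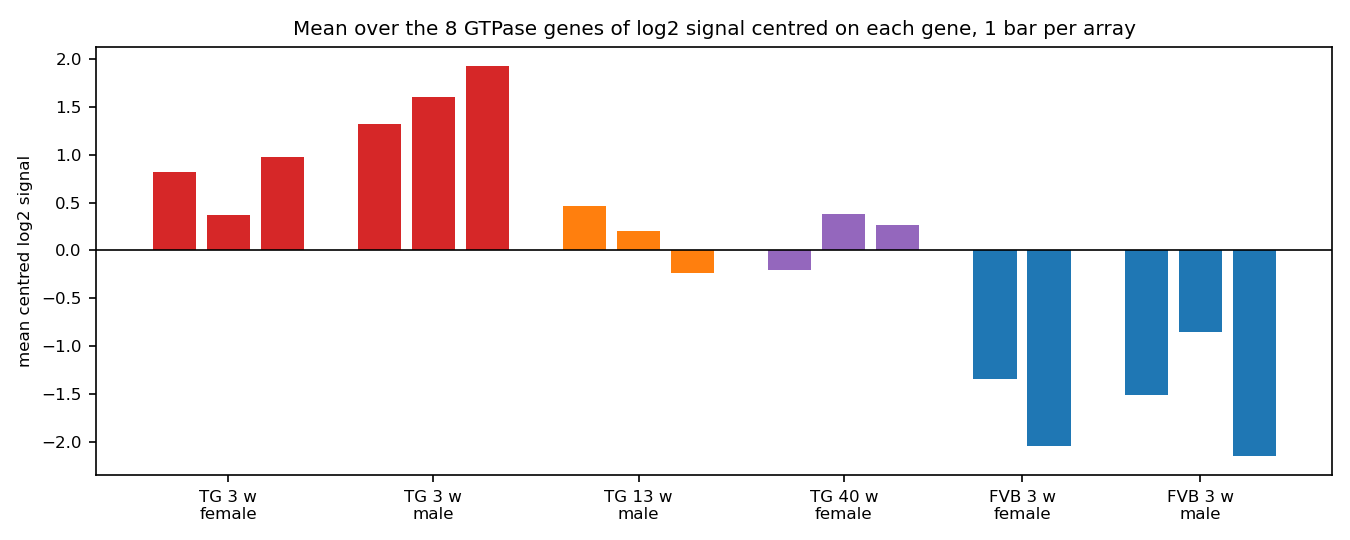
Mean over the 8 genes of the log2 signal centred on each gene's own mean, with 1 bar per array, grouped as transgenic (TG) hearts of 3, 13 and 40 weeks and FVB hearts of 3 weeks. The 3 male transgenic arrays of 3 weeks are the highest at 1.32 to 1.92, and the 5 FVB arrays the lowest at -2.14 to -0.85.

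Upstream, Ifng itself stayed below the floor of 44.7 on all 12 transgenic arrays, at 2.0 to 20.1 at 3 weeks, 1.4 to 14.7 at 13 weeks and 3.1 to 4.1 at 40 weeks. It was also below the floor on 4 of the 5 FVB arrays, and read 52.6 on the outlying one, so these arrays give no level for it. A list of 12 genes held Ifng itself and inducers of interferon-gamma, with their receptors and transcription factors. Of these 12 genes 10 were on the array and only 2 passed the filter. Both rose at 3 weeks by limma, Il18r1, a cytokine receptor chain of T and NK cells, by 1.72 (adjusted p = 6.5e-05) and Ebi3, a subunit of secreted cytokines, by 1.57 (adjusted p = 3.1e-07). Il18r1 passed the filter only through transgenic arrays. Neither was called, or had an unadjusted p under 0.05, at 13 or 40 weeks. In the receptor and signalling list 6 of 7 measured genes rose at 3 weeks and 1 fell, where 24.7% of all probe sets were called higher and 21.9% lower, with a median log2 difference of 1.46. Irf8, a myeloid transcription factor, rose by 2.69 (SE 0.17), Irf1 by 1.58 (SE 0.21), Ifngr1, the ligand-binding receptor chain, by 1.53 (SE 0.28) and the kinases Jak2 and Jak1 by 1.46 (SE 0.17) and 0.77 (SE 0.16). Ifngr2, the other receptor chain, fell by 0.55 (SE 0.20, limma adjusted p = 0.0329). Without the 3 doubted FVB arrays 5 genes rose and none fell, Ifngr2 being at -0.63 (adjusted p = 0.0891) and Ciita, the switch of class II genes, at 0.45 (adjusted p = 0.215) in place of 0.67. At 13 weeks none of the 7 was called (median -0.17), with Irf1 at -0.64 and Irf8 at -0.53, both with an unadjusted limma p under 0.05, as had 8.61% of all probe sets. At 40 weeks none was called either, and only Ifngr2 (-0.72) had an unadjusted p under 0.05.

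Among 6 measured brakes on interferon signalling, 3 rose and 1 fell at 3 weeks, where 24.7% of all probe sets were called higher and 21.9% lower. Ptpn6, a phosphatase of blood cells that passed the filter only through transgenic arrays, rose by 2.83 (SE 0.16), Socs3 by 1.37 (SE 0.21) and Ptpn2, a phosphatase that acts on JAK kinases, by 0.63 (SE 0.16), while Cish fell by 0.63 (SE 0.14). Socs1, the main inhibitor of the interferon-gamma receptor, was at 0.55 (SE 0.43, limma adjusted p = 0.315), with its highest signal, 620, on the outlying FVB array. Without the 3 doubted FVB arrays Socs1 rose by 1.27 (adjusted p = 0.0014) and Ptpn2, at 0.44, was not called (adjusted p = 0.118). None of the 6 was called at 13 or at 40 weeks, at unadjusted p under 0.05 for Ptpn6 (-0.67) at 13 weeks and Cish (-0.56) at 40 weeks.

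One further guanylate-binding gene was measured. Gbp7, which helps assemble the oxidase and autophagy machinery at vacuoles, read 1441, 1752 and 2106 in transgenic females and 2148, 3501 and 2244 in transgenic males of 3 weeks, 1294, 1101 and 1163 at 13 weeks and 1372, 1692 and 1649 at 40 weeks, against 639, 368, 851, 1150 and 404 in FVB. It rose by 1.83 at 3 weeks (SE 0.24, limma adjusted p = 1.7e-05), and the values -1.12 (SE 0.32, adjusted p = 0.181) at 13 weeks and -0.16 (SE 0.32, adjusted p = 0.9515) at 40 weeks were not called. Without the 3 doubted FVB arrays the same 13-week difference had an adjusted p of 0.0241, as the spread of all groups enters each test. Gbp7 was called at 13 weeks in only that 1 of 30 alternative settings, with limma adjusted p up to 0.562. Its promoter window held an ISRE core and 2 GAS matches. Probe sets of Gbp2b, of Gbp4 together with Gbp8, and of the antiviral Mx1 and Mx2 did not pass the filter on low signal, with no value above 161 on any array.

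Of other interferon-gamma targets, 17 of 21 measured genes rose at 3 weeks and 1 fell (median log2 difference 2.52). In that comparison 24.7% of all probe sets were called higher and 21.9% lower. H2-Aa was at 4.79, Cd74 at 3.56 and Ifi30, a reductase of antigen processing, at 4.12. Without the 3 doubted FVB arrays 16 of 20 rose, Psme1, of the proteasome activator, being at 0.30 (adjusted p = 0.301) in place of 0.53, and Ido1 not passing the filter. Cxcl9, Acod1, Cybb and Ccl5 passed the filter only through transgenic arrays. Ccl5 at 5.29 and Cxcl9 at 4.26 are lower limits, because no FVB array of the 5 exceeded the floor for Ccl5 and only 1 did for Cxcl9. Fcgr1, an Fc receptor of macrophages, fell by 0.76 (SE 0.22). At 13 weeks 2 of the 21 were called lower by limma, where 0.174% of all probe sets were, and none higher, where 0.349% were (median -0.35). Cxcl9, a T cell chemokine induced by interferon-gamma, averaged 522 ± 78.95 at 13 weeks and 1452 ± 377 in 3-week males (SD, n = 3 each), a log2 difference of -1.46 (SE 0.24, limma adjusted p = 0.0089). Ccl5, a chemokine of T and NK cells, averaged 704 ± 206 and 2462.5 ± 1163 (SD, n = 3 each), a difference of -1.75 (SE 0.31, limma adjusted p = 0.0142). For both, all 3 arrays of 13 weeks lay below all 3 males of 3 weeks. Cxcl9 was called in 29 of 30 alternative settings, with 0.0699 as its highest adjusted p (without 13-week replicate 3), and Ccl5 in 26, with 0.0851 as the highest. Ccl5 was not called without replicate 1 or 3 of 13 weeks, without 3-week male replicate 2, or when only the groups compared were fitted. Psmb8 and Psmb9, subunits of the immunoproteasome, were at -1.01 and -1.35, and the peptide transporter Tap1 at -0.97, with limma adjusted p of 0.0982, 0.227 and 0.181. Psmb8 was called without the 3 doubted FVB arrays (adjusted p = 0.0305). The class II genes H2-Aa, H2-Ab1, H2-Eb1 and Cd74 and the class I light chain B2m were between -0.12 and 0.12, with none called, a group of 5 singled out after its values were seen. These 5 had been 2.02 to 5.55 higher in transgenic than in FVB hearts at 3 weeks.

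At 40 weeks none of the 21 was called by limma (median -0.16), and 2 had an unadjusted p under 0.05. Acod1, which makes the antimicrobial itaconate, was at -1.45 (adjusted p = 0.123, and 0.0289 without the 3 doubted FVB arrays) and Gch1, of the cofactor of nitric oxide synthase, at -0.52 (adjusted p = 0.503). Of all 7453 probe sets 13 were called lower at 13 weeks, and 3 of these belong to the gene lists used here, Cxcl9, Ccl5 and Gzmb. The 13 also include probe sets of GTPase genes, which were picked for that fall and carry no test.

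**Figure D4:**
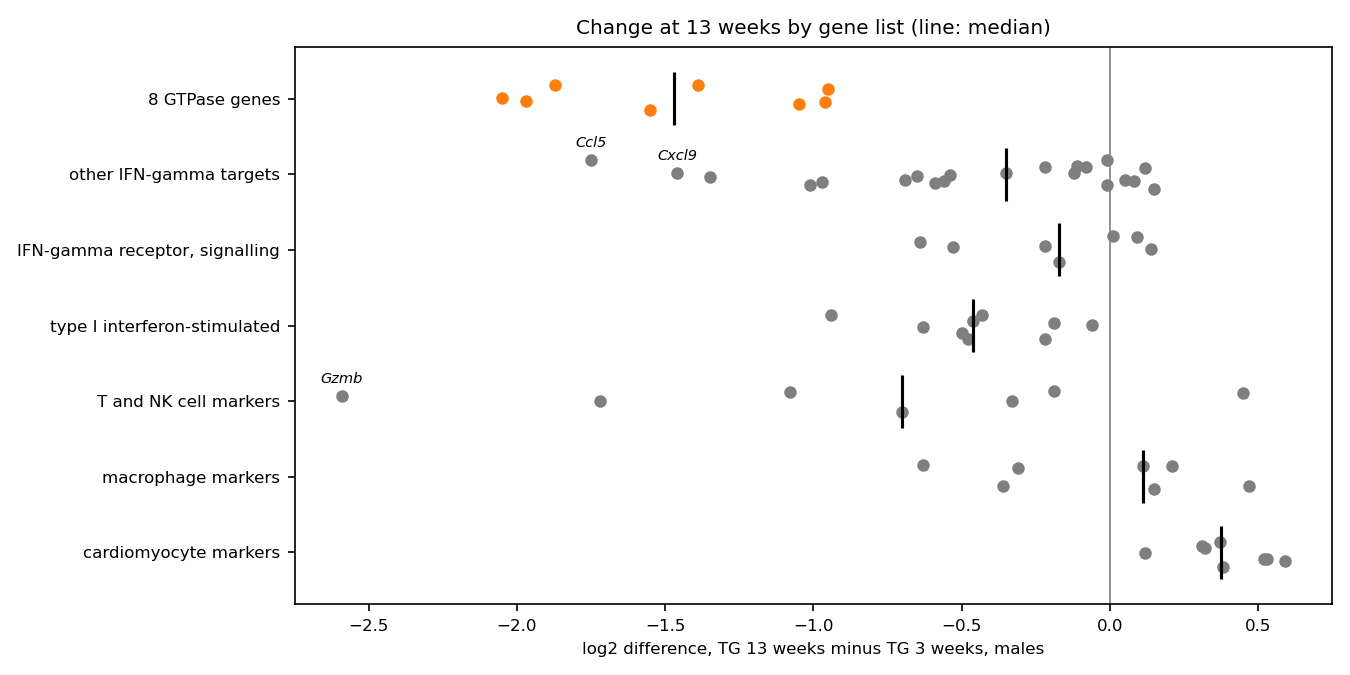
Log2 difference between 13 and 3 weeks in transgenic males for each measured gene, in rows for the 8 GTPase genes and 6 gene lists, with a line at each median and names on the genes of the lists called by limma. The GTPase genes lie between -2.05 and -0.95, and Cxcl9 (-1.46), Ccl5 (-1.75) and Gzmb (-2.59) are the named genes.

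Of 9 measured type I interferon-stimulated genes, which answer mainly to interferon-alpha and -beta, 8 rose at 3 weeks (median 0.98). In that comparison 24.7% of all probe sets were called higher. Among the 8 were Ifi202b at 2.83, Ifit2 at 1.60, Irf9 at 1.13 and Isg15, a ubiquitin-like modifier, at 0.91. Ifit2, Ifi202b and Irf7, which was not among the 8, passed the filter only through transgenic arrays. Without the 3 doubted FVB arrays 7 rose, with Irf7 called (1.37) and Rsad2 (0.16) and Ifi35 (0.56) not. At 13 weeks none was called (median -0.46), Ifi202b being at -0.94 with an unadjusted limma p of 0.0015 and an adjusted p of 0.128, and no other of the 9 had an unadjusted p under 0.05. At 40 weeks none was called (median 0.30) or had an unadjusted p under 0.05. Of 9 measured autophagy genes, whose conjugation system marks the membranes that IRG and guanylate-binding proteins attack, 1 rose and 2 fell at 3 weeks, where 24.7% of all probe sets were called higher and 21.9% lower, so the list does not stand out. Atg7, which passed the filter only through transgenic arrays, rose by 1.27, and Map1lc3a fell by 1.42 and Map1lc3b fell by 0.56. Gabarapl2 (-0.47) was called lower too without the 3 doubted FVB arrays. None of the 9 was called at 13 or at 40 weeks, with unadjusted p under 0.05 for Map1lc3a (0.83) and Map1lc3b (0.55) at 13 weeks and Gabarapl1 (0.47) at 40 weeks.

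Most leukocyte markers had a higher mean signal in transgenic than in FVB hearts of 3 weeks, as the GTPase genes had. The exceptions were Fcgr3 (75.67 against 111.5), Klrk1 (56.25 against 69.98) and Prf1 (38.95 against 42.54), none of which passed the filter. At 13 weeks the median log2 difference was -0.70 for 7 T and NK cell markers, 1 of them called lower, and 0.11 for 7 macrophage markers, none called. Of all probe sets 0.174% were called lower at 13 weeks. The part of leukocytes in the differences of the GTPase genes was not tested. Of 9 macrophage markers on the array 7 were tested and 6 rose at 3 weeks, of which Adgre1 and Ptprc passed the filter only through transgenic arrays. Their summed signal was 21038 to 26883 in transgenic hearts of 3 weeks, 20775 to 31015 at 13 weeks and 19001 to 27262 at 40 weeks, against 2898 to 4490 in FVB. Lyz2, with a mean of 12935 in transgenic hearts of 3 weeks, was the largest part of this sum, so the sum mainly follows that gene. The ranges of the sum overlapped among the transgenic groups of every age and sex. At 13 weeks 4 of the 7 tested markers were higher and 3 lower. None of the 7 was called at 13 or 40 weeks (1 with an unadjusted p under 0.05, Cd68 at 40 weeks). Of 15 T and NK cell markers 7 passed the filter, which favours genes high in transgenic hearts, and all 7 rose at 3 weeks, 5 of them having passed only through transgenic arrays (Cd3e, Cd3g, Zap70, Gzmb and Klrd1). Beside these counts of macrophage and of T and NK cell markers, 24.7% of all probe sets were called higher at 3 weeks. The summed signal of the 15 was 2170 to 3082 in transgenic females and 3905 to 5051 in transgenic males of 3 weeks, 2419 to 3245 at 13 weeks and 2320 to 3905 at 40 weeks, against 727 to 1803 in FVB. As for 7 of the 8 GTPase genes, Ifi47 being the exception, this sum was higher on all 3 transgenic males of 3 weeks than on the 3-week females and the 13-week males. The GTPase genes were picked for the fall to 13 weeks, which also favours lower females, so the match carries no test. The highest sum at 40 weeks, 3904.9, reached the lowest of the 3-week males, 3904.8.

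Gzmb, the granzyme of cytotoxic lymphocytes, averaged 94.4 ± 32.7 at 13 weeks and 564 ± 188 in 3-week males (SD, n = 3 each), a log2 difference of -2.59 (limma adjusted p = 0.0109) and the only one of the 7 called at 13 weeks. It was called in 26 of 29 alternative settings that tested it, with a highest adjusted p of 0.0610, and not without replicate 1 of 13 weeks, without 3-week male replicate 3 or with no filter. Also at 13 weeks, Klrd1, an NK receptor chain, was at -1.08 (limma adjusted p = 0.0904) and Cd3e, of the T cell receptor complex, at -1.72 (adjusted p = 0.544). Thy1 was at -0.70, Cd3g at -0.33 and Zap70 at -0.19, while Cd4 went the other way at 0.45. Of the 7 tested markers 6 were thus lower and 1 was higher at 13 weeks. In 3-week transgenic females all 7 markers were lower than in males (median -0.73), and none was called. Gzma lay at the floor on all females of both transgenic ages, and no other of these 15 markers was at the floor throughout a transgenic group of 1 age and sex. All 8 cardiomyocyte markers fell at 3 weeks (median -1.02), where 21.9% of all probe sets were called lower. The summed signal of these markers was 93201 to 184319 in transgenic hearts against 175936 to 289466 in FVB.

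The genes with the profile most like the 8 GTPase genes over the 17 arrays were Ppp1r21 (Pearson r 0.973), Psmb9 (0.966), Tap1 (0.966), Psmb8 (0.965), Slc9a3r1 (0.963) and Ifi202b (0.956), among 6744 probe sets of which 5% exceeded 0.855. Over the 12 transgenic arrays alone they were Rac2, Myo1f, Tap1 and Psmb8 (each 0.952), Fnbp4 (0.936) and Slc9a3r1 (0.933), where 5% exceeded 0.678. Each GTPase gene correlated with the mean of the other 7 at 0.900 to 0.985 over 17 arrays and 0.871 to 0.980 over 12, counting both probe sets of Iigp1. Over 17 arrays such values largely follow the split between transgenic and FVB hearts that all these genes share. The 8 genes were picked for that split and for lower signals in the older transgenic males. Their correlations with one another are therefore favoured by that choice, over the 12 transgenic arrays too, and carry no test. Genes of most similar profile were ranked by likeness to that chosen pattern.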

How the data were processed

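Each deposited value is the intensity of 1 probe set on 1 array, on a linear scale. The mean between percentiles 2 and 98 was 499.8 to 499.9 on every array, so the authors deposited scaled values. The software is not given in the sources used here, and the array type is as per the labels. The 18 columns hold 17 distinct arrays in 6 groups, assigned by sample title. Signals under percentile 25 of all values, 44.675 (the floor), were set to it before taking log2. Of 12422 probe sets without the 66 controls, the 60% of highest mean, 7453, were tested with limma 3.58.1 in R 4.3.3. The fit had 1 mean per group, with 11 residual and 4.885 prior degrees of freedom. Tests were two-sided, with Benjamini-Hochberg adjustment over all tested, and called at 0.05. The code of the fit was run on simulated data with independent normal noise. Such data hold no outlying array, so that run does not check the fit on these arrays. The probe set of highest mean stood for its gene, and symbols came from GEO's platform annotation. The 8 genes, the lists and the tests were chosen with earlier results of these data known. Named genes are the 8, up to 5 of smallest p per list and comparison, and the 6 of most similar profile. Some genes outside this rule were named after their values were seen: Psmb9, B2m, H2-Ab1, H2-Eb1, Fcgr1, Ciita, Gzma, Cybb, Ido1 and Ifng. Alternatives varied scaling, floor, filter, variance model, arrays and block. The number of arrays limits the precision.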

Additional observations from a re-analysis of the deposited data

How the results depend on the processing

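Under 30 alternative settings the 8 genes kept the sign of their 3-week and 13-week differences. Of 1200 values (8 genes, 5 comparisons), 1189 stayed within the spread between arrays (3 and 13 weeks, which carry no test) or on their side of the threshold (the other comparisons). Without the 3 doubted FVB arrays (the outlying female and the males with Xist), Igtp, Irgm1, Ifi47 and Tgtp1 moved to 3.84, 2.29, 4.36 and 4.46 at 3 weeks. A floor at percentile 40 put Ifi47 at 2.81. The count called at 3 weeks, 3474, stayed within 1.5 times.

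The later and sex counts depended on the setting, and the cause was not tested. At 13 weeks, 39 probe sets were called, against 61 with the higher floor, 80 with array weights, 63 without the 3 FVB arrays, and 14 to 74 with 1 array left out (lowest without 13-week replicate 3, highest without FVB female replicate 3). At 40 weeks the count was 50, against 78 with the higher floor, 77 with no filter, 30 with the brightest 40%, 803 with array weights, and 25 to 74 with 1 array left out (lowest without 40-week replicate 2, highest without FVB female replicate 3). Members of the 8 called at 40 weeks numbered 0, and 3 with array weights. For the sex difference of the transgene effect 0 were called, against 6 with quantile normalisation, 17 with a common median, 3 with the higher floor, 91 with no filter, 174 with both identical columns kept, 1 without the 3 FVB arrays, and 0 to 1492 with 1 array left out, when 0 to 3 of the 8 genes were called. Between transgenic females and males 6 were called, against 2 with quantile normalisation or no filter, 12 with the higher floor, 11 with log2 of signal plus 50 or a variance trend, 3 with the brightest 40% or with only the groups compared, 23 with array weights, 14 with both identical columns, and 0 to 19 with 1 array left out.

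Same-numbered samples of different groups correlated at -0.336 to 0.466 in their deviations from group means, above 0.1 in 16 of 40 pairs. The median was 0.054, against 0.008 for samples of unlike number. The samples were not treated as paired, and with so few arrays per group this check cannot exclude a pairing. With the replicate number as a block 3328, 37 and 47 probe sets were called at 3, 13 and 40 weeks, and the block changed no call of the 8 genes at 40 weeks or between the sexes.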
